A study of Mus musculus with 6 samples.

Results

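The Sox and Pou genes encode 2 families of DNA-binding transcription factors, and 30 of them, 19 Sox and 11 Pou genes, were followed here in dorsal midbrain after conditional deletion of *Ezh2*. A gene was included if at least 1 probe set carried it as its single symbol in the platform's annotation, written as Sox and a number or as Pou, a number, f and a number. These were 30 of the 18193 genes that the arrays represent with a single symbol, and they were covered by 71 of 45037 probe sets. Of the 30 genes, 11 had 1 probe set and 19 had several, up to 8 for *Sox4*. Each gene is represented by its probe set with the highest mean over the arrays. *Pou4f2* is given apart from the other genes.

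Total RNA came from dorsal midbrain of mouse embryos at embryonic day 10.5, from 3 control and 3 *Ezh2* cko samples on a C57BL/6 background, each hybridized to its own Affymetrix A430 array. *Ezh2* cko embryos carry Wnt1-Cre and 2 floxed *Ezh2* alleles, from which Cre deletes the catalytic SET domain. By the methods, control littermates were homozygous for the floxed allele without Cre or carried Cre with 1 wild-type allele, whereas the labels call every control WT. Wnt1-Cre is also active in neural crest, and the study describes the loss of Ezh2 protein as complete in the caudal and partial in the rostral dorsal midbrain. By the methods each group came from 2 litters, which the labels do not assign to samples. Values are log2 signals from RMA, which have no level that marks absence and depend on the probes, so a gene is compared only with itself across arrays. The midbrain genes *Otx2* and *En2*, at 11.16 to 11.43 and 12.29 to 12.63, were above the upper quartile of every array. *En1*, at 7.98 to 8.77, was below it on control replicates 2 and 3. Every *Ezh2* cko array lay above every control for *En1* and *En2*, as in 7.52% of all genes. In whole tissue, fewer cells of a type and less RNA per cell cannot be told apart.

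Sox proteins bind DNA through an HMG box, and Pou proteins through a POU-specific domain joined to a homeodomain. SoxB1 proteins keep neural progenitors undifferentiated, SoxC proteins act in newly formed neurons, SoxE proteins in glia, cartilage and neural crest, and SoxF proteins in endothelium. Among Pou genes, class III is expressed widely in the neural tube and class IV in sensory and other postmitotic neurons. Many developmental transcription factor genes have CpG-rich promoters, at which Polycomb repressive complex 2, whose catalytic subunit is Ezh2, can place H3K27me3.

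One array stood apart from the others. Control replicate 1 had the lowest level of neuron, mesenchyme and macrophage markers, and it differed in sex-linked transcripts. *Xist*, transcribed from the inactive X chromosome, was at 11.70 there and at 5.13 to 5.36 on the other 5 arrays, and the Y-linked gene *Kdm5d* was at 3.03 against 8.97 to 9.25. By these transcripts control replicate 1 was female and the other 5 samples, every *Ezh2* cko among them, were male. Of 20 Sox and Pou genes followed through the alternatives, 8 had a difference that moved by over 1.5 times or changed sign without this array, and that value is given with each gene. The count was made for this array only, and leaving out others also moved differences. *Sox13* was at -0.20 in place of -0.35 without control replicate 2, and *Pou3f2* at -0.0086 in place of -0.22 without *Ezh2* cko replicate 3. The 1 probe set for *Ezh2* itself, at 11.66 to 11.76 in controls and 11.72 to 11.79 in the *Ezh2* cko, was not placed inside or outside the deleted part and does not check the deletion.

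The promoters of the genes were rich in CpG. RefSeq promoter windows on GRCm38.p6, from 250 bases before to 50 after the gene start, were at hand for 21 of the 30 genes. They held a median of 21 CG dinucleotides in 300 bases, against a median of 7 over the first window of 27018 genes of all kinds, with a range of 3 in *Sox5* to 57 in *Pou4f1*. The median ratio of observed to expected CG was 0.699 against 0.388, and the median GC content 65.7% against 52.7%. The arrays did not measure H3K27me3.

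Below are the 250 bases before the start of 4 genes, 5′ to 3′ on the strand of the gene, with every CG dinucleotide in capitals. They show genes whose *Ezh2* cko signals all lay above the controls (*Pou6f1* and *Pou4f1*), all lay below them (*Sox13*) or overlapped with them (*Sox2*). The 250 bases held 20 CG dinucleotides for *Pou6f1*, 47 for *Pou4f1*, 31 for *Sox13* and 27 for *Sox2*.
Pou6f1 (chr15:100599985-100600234, minus strand): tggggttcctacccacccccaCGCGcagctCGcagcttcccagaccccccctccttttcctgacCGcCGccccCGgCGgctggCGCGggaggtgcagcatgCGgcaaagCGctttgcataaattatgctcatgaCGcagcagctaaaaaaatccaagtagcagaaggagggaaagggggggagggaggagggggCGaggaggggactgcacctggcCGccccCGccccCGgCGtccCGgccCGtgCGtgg
Pou4f1 (chr14:104468000-104468249, minus strand): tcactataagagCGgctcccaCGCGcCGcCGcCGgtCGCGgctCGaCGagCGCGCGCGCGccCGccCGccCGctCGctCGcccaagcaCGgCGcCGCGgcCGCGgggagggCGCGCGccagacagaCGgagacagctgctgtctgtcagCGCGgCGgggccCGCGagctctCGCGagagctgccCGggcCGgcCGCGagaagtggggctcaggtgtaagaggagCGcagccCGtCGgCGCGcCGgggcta
Sox13 (chr1:133424213-133424462, minus strand): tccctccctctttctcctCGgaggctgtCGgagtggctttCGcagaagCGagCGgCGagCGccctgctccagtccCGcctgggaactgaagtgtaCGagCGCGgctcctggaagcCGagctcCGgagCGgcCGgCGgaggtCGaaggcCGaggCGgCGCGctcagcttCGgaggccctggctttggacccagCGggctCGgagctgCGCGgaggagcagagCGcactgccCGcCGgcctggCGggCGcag
Sox2 (chr3:34649745-34649994, plus strand): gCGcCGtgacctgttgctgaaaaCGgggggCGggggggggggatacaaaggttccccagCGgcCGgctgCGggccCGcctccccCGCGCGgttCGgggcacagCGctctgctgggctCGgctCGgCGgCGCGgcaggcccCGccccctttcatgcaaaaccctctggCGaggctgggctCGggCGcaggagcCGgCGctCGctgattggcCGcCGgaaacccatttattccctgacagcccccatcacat

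None of the 30 Sox and Pou genes passed the test between the groups. In limma, with Benjamini-Hochberg adjustment over all probe sets, 0 of 30 had an adjusted p under 0.05, and the smallest adjusted p was 0.325, for *Sox3*. Over all 18193 genes, 0.302% passed. The methods set a minimum fold, which is 0.807 on the log2 scale, and an unadjusted p of 0.01 or less. By that threshold the count was also 0, against 0.407% of all genes. At an unadjusted p under 0.05, 6 of the 30 genes (20%) passed in limma, against 8.87% of all genes. *Pou6f1*, *Pou4f1*, *Pou3f1* and *Sox6* had higher signal in the *Ezh2* cko (4 of 30, against 6.12% of all genes), and *Sox3* and *Sox13* had lower signal (2 of 30, against 2.75%). By the methods' t-test, 5 genes passed the same unadjusted p, against 8.16% of all genes, and 0 the adjusted one.

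Differences were of both signs. The log2 difference, *Ezh2* cko minus control, was positive for 18 genes and negative for 12, from -0.44 for *Sox3* to 0.51 for *Pou6f1*. Its median was 0.033 over the Sox genes and 0.0083 over the Pou genes, against -0.019 over all genes. The 95% interval of the difference lay inside the methods' fold threshold in both directions for 28 of the 30 genes. For *Pou6f1* and *Pou4f1* it reached past the threshold on the higher side, with upper ends of 0.82 and 0.83 on the log2 scale.

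In 9 of the 30 genes (30%), all *Ezh2* cko arrays lay on one side of all controls, against 15.4% of all genes. They were 5 of 30 with higher signal (16.7%, against 7.52% of all genes) and 4 with lower signal (13.3%, against 7.88%). The count rests on the choice of probe set. With the mean of all probe sets of a gene it was 5 of 30, against 15% of all genes. The p-values measure the spread between the samples of a group, and litter cannot be separated from it.

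**Figure D1:**
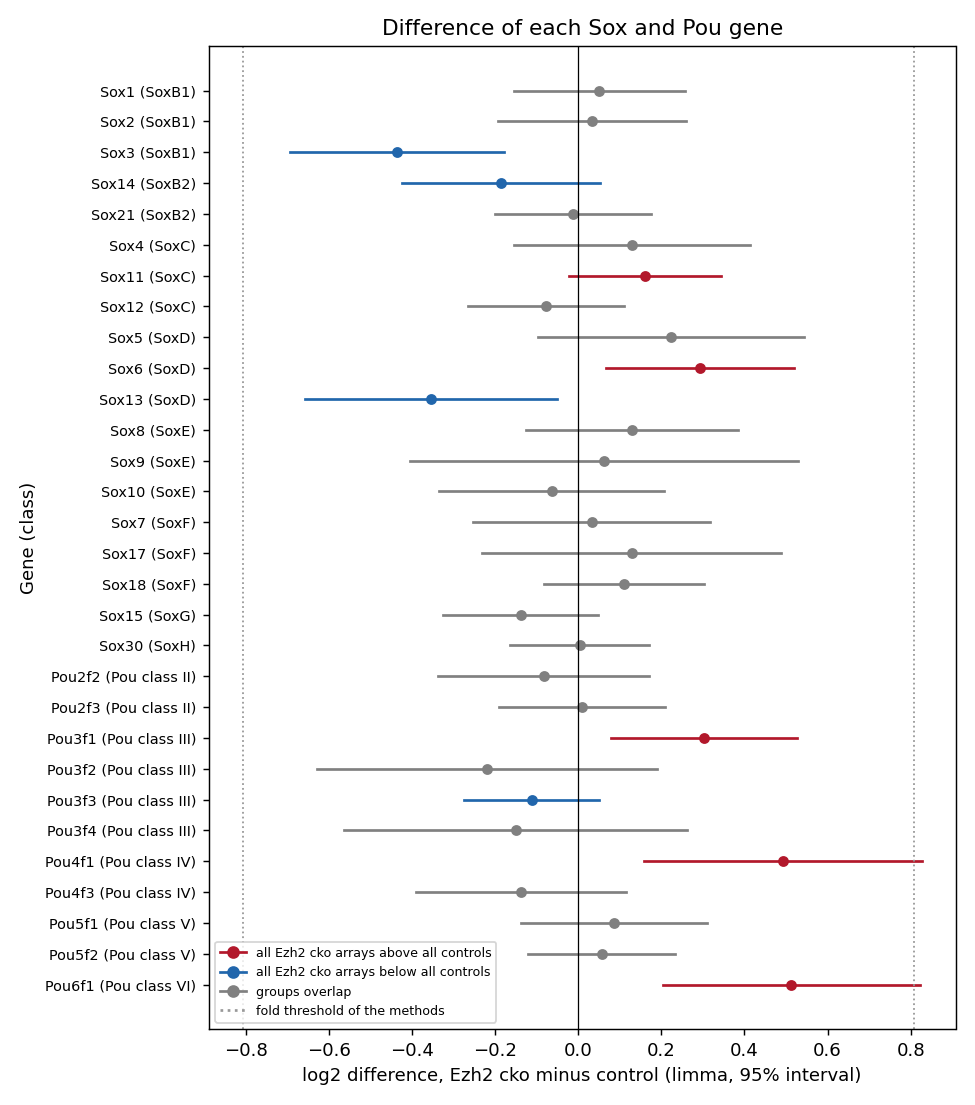
Log2 difference (x axis), Ezh2 cko minus control, of each Sox and Pou gene (y axis, with its class), with its 95% interval from limma. Red marks 5 genes and blue 4 genes whose groups do not overlap, and only the intervals of Pou4f1 and Pou6f1 cross the dotted lines at the methods' fold threshold (0.807 on the log2 scale).

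The SoxB1 genes *Sox1*, *Sox2* and *Sox3* encode activators that mark neural progenitors. In *Sox3* alone of the 3, by its brighter probe set, the groups did not overlap. *Sox2* was at 12.13, 12.05 and 12.29 in controls and at 12.04, 12.20 and 12.32 in the *Ezh2* cko, so that the groups overlapped. Its log2 difference was 0.033 (95% interval -0.19 to 0.26, adjusted p = 0.969 in limma), and 0.019 without control replicate 1. *Sox1* was at 10.001, 9.826 and 9.865 in controls and at 9.816, 10.0004 and 10.027 in the *Ezh2* cko. Its difference was 0.050 (-0.16 to 0.26), or 0.10 without control replicate 1, while its dimmer probe set gave -0.19. For both genes the interval ends well inside the methods' fold threshold.

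*Sox3* was at 10.424, 10.755 and 10.480 in controls and at 9.999, 10.075 and 10.275 in the *Ezh2* cko. Every *Ezh2* cko array was below every control. The log2 difference was -0.44 (standard error 0.11, unadjusted p = 0.00434, adjusted p = 0.325 in limma), or 0.739 of the control level. It stayed between -0.52 and -0.34 without any 1 array, and was -0.50 without control replicate 1. *Sox3* lies on the X chromosome, and that array differs from the others in *Xist*. The other probe set of *Sox3*, with a mean signal near 5.90 in both groups, gave -0.0052, and its groups overlapped.

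The SoxB2 genes encode repressors that counteract SoxB1 proteins. *Sox21* had a difference of -0.012 with overlapping groups. *Sox14*, a gene of inhibitory neurons in the thalamus and midbrain, was at 6.33, 5.98 and 6.00 in controls and at 5.90, 5.95 and 5.91 in the *Ezh2* cko. Its *Ezh2* cko values were all lower, by a narrow margin. The difference was -0.19 (adjusted p = 0.755 in limma), and it was -0.073 without control replicate 1.

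SoxC genes, which act in neurons as they form, had differences of 0.16 or less in size. *Sox11* was at 12.35, 12.41 and 12.46 in controls and at 12.47, 12.60 and 12.64 in the *Ezh2* cko. The groups just failed to overlap. The difference was 0.16 (-0.022 to 0.34, adjusted p = 0.715 in limma), and of its 6 probe sets 5 had a positive difference. This probe set may also detect other transcripts, as its suffix marks. The one that replaces it when such sets are left out gave 0.093. *Sox4* was at 12.48, 12.54 and 12.76 in controls and at 12.51, 12.71 and 12.95 in the *Ezh2* cko, with overlapping groups and a difference of 0.13, or 0.073 without control replicate 1. Its 7 other probe sets all had negative differences, of -0.19 to -0.0074. *Sox12* was at 8.81, 8.98 and 8.77 in controls and at 8.76, 8.76 and 8.81 in the *Ezh2* cko, a difference of -0.077.

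The SoxD genes, which lack an activation domain of their own and modulate other Sox proteins, had differences in both directions. *Sox6* was at 7.35, 7.48 and 7.33 in controls and at 7.85, 7.53 and 7.66 in the *Ezh2* cko. All *Ezh2* cko arrays were above the controls. The difference was 0.29 (standard error 0.10, unadjusted p = 0.0171, adjusted p = 0.511 in limma). Of its 4 probe sets, 3 had no overlap between the groups. Of these, the set with a control mean of 6.51 gave the largest difference, at 6.61, 6.49 and 6.43 in controls and 6.89, 7.05 and 7.35 in the *Ezh2* cko. That difference was 0.58 (unadjusted p = 0.00116, adjusted p = 0.181 in limma), the smallest p among the 71 probe sets, and the dimmest set of *Sox6* gave -0.0051.

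*Sox5*, often active beside *Sox6*, was at 5.17, 5.70 and 5.57 in controls and at 5.83, 5.57 and 5.70 in the *Ezh2* cko. Its difference of 0.22 (adjusted p = 0.786 in limma) came with overlapping groups, and it was 0.066 without control replicate 1. The 7 probe sets of *Sox5* had differences of both signs. *Sox13* was at 8.95, 9.33 and 8.77 in controls and at 8.67, 8.63 and 8.67 in the *Ezh2* cko. All *Ezh2* cko arrays were lower. The difference was -0.35 (standard error 0.13, unadjusted p = 0.0266, adjusted p = 0.577 in limma). Control replicate 2 set much of its size, and without it the difference was -0.20.

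SoxE genes, which mark glia, cartilage and neural crest derivatives, had overlapping groups throughout. *Sox9* was at 6.29, 6.62 and 6.75 in controls and at 6.22, 6.56 and 7.06 in the *Ezh2* cko, with a wide interval for its difference of 0.063 (-0.40 to 0.53). Without control replicate 1 the difference was -0.071. *Sox10*, needed for the glia and pigment cells of the neural crest, was at 6.92, 6.66 and 6.48 in controls and at 6.52, 6.63 and 6.73 in the *Ezh2* cko. Its 3 probe sets gave differences of -0.14 to -0.064, and the brightest one gave 0.053 without control replicate 1. *Sox8* was at 3.80, 3.91 and 3.50 in controls and at 3.95, 3.80 and 3.85 in the *Ezh2* cko, a difference of 0.13. In the list of other neural crest and glial genes, 0 of 15 passed the adjusted p and the median log2 difference was 0.056. In 6 of 15 (40%, against 7.52% of all genes) every *Ezh2* cko array lay above the controls. The difference was positive for 9 and negative for 6, down to -0.26. The highest values in it were those of *Tfap2a* (0.55), *Ednrb* (0.47) and *Snai2* (0.45).

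The 5 remaining Sox genes belong to groups with little known role in neural progenitors, and in all of them the groups overlapped. *Sox7*, *Sox17* and *Sox18* of the SoxF group, which act in endothelium, had differences of 0.033 to 0.13. The probe set of *Sox17* may cross-hybridise, and its other set gave -0.15, with every *Ezh2* cko array below the controls. Of 15 endothelium markers 0 passed the adjusted p, and their median was 0.051. At an unadjusted p under 0.05 in limma 0 passed as well, against 8.87% of all genes. *Sox15* had a difference of -0.14, and *Sox30*, known from spermatogenesis, one of 0.0035.

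**Figure D2:**
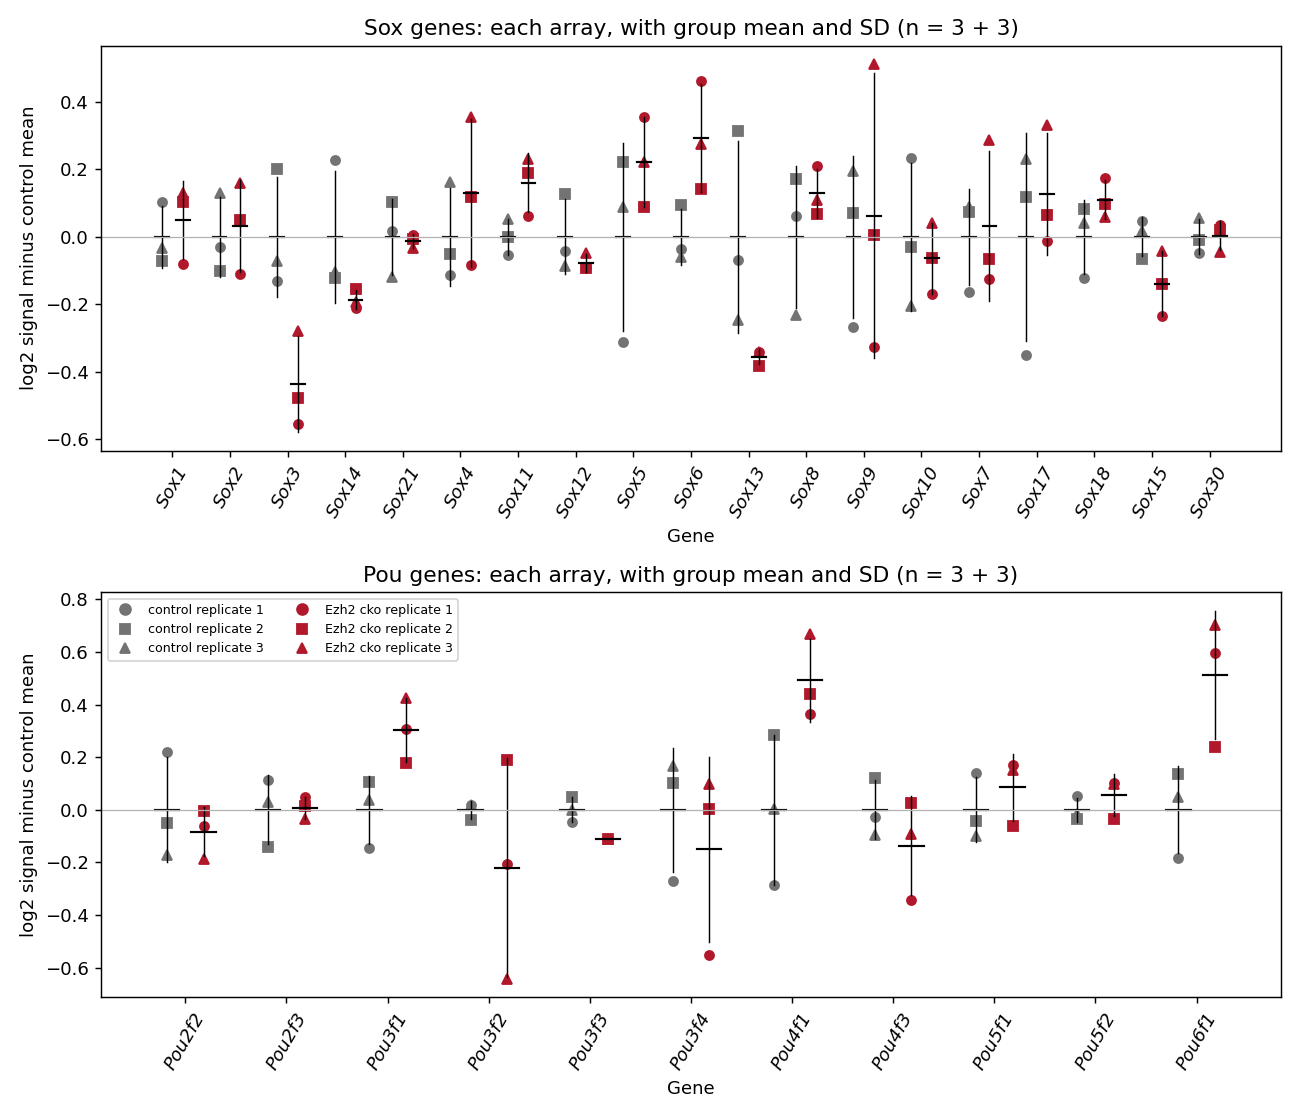
Log2 signal of each gene (x axis) on each array, as the deviation from its mean in controls (y axis), with group means and SDs as black lines, for 19 Sox genes (top) and 11 Pou genes (bottom). The Ezh2 cko points (red) of Sox3 and Sox13 lie below the controls (grey), those of Sox6, Pou3f1, Pou4f1 and Pou6f1 lie above them, and those of Sox2 overlap with them.

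Class III Pou genes had differences of both signs, 1 positive and 3 negative. *Pou3f1*, which encodes Oct6, a factor of early neural tissue and of myelinating Schwann cells, was at 9.85, 10.10 and 10.04 in controls and at 10.31, 10.18 and 10.42 in the *Ezh2* cko. Its *Ezh2* cko values were all higher. The difference was 0.30 (standard error 0.10, unadjusted p = 0.0140, adjusted p = 0.480 in limma), and 0.23 without control replicate 1. The other probe set gave 0.097 with overlapping groups.

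*Pou3f2* and *Pou3f3* encode Brn2 and Brn1, which overlap in function in cortical progenitors and neurons. *Pou3f2* was at 7.999, 7.939 and 7.998 in controls and at 7.771, 8.168 and 7.337 in the *Ezh2* cko, so that the *Ezh2* cko spread (SD 0.42, n = 3) was wide beside that of the controls (SD 0.034, n = 3). Its difference of -0.22 was -0.0086 without *Ezh2* cko replicate 3. *Pou3f3* was at 11.75, 11.85 and 11.80 in controls and at 11.69 on each *Ezh2* cko array. Every *Ezh2* cko array was lower, by a small difference of -0.11 (-0.27 to 0.051, adjusted p = 0.789 in limma). Its other probe set gave -0.10 with overlapping groups.

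*Pou3f4*, an X-linked gene needed in the inner ear, was at 7.93, 8.30 and 8.37 in controls and at 7.65, 8.20 and 8.30 in the *Ezh2* cko, a difference of -0.15 with overlapping groups. Without control replicate 1 it was -0.29. Its probe sets disagreed. The other set was at 7.31, 7.45 and 7.34 in controls and at 6.86, 7.46 and 8.73 in the *Ezh2* cko, a difference of 0.32 (adjusted p = 0.901 in limma) that rests on *Ezh2* cko replicate 3.

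Of the class IV genes, *Pou4f1* had signals in the *Ezh2* cko above every control by both of its probe sets. *Pou4f1* encodes Brn3a, a factor of sensory neurons and of neurons in the midbrain roof. It was at 7.82, 8.39 and 8.11 in controls and at 8.47, 8.55 and 8.78 in the *Ezh2* cko. The difference was 0.49, or 1.41-fold (standard error 0.15, unadjusted p = 0.00906, adjusted p = 0.416 in limma). The second probe set, at 7.48, 8.28 and 8.24 against 8.31, 8.62 and 9.02, gave 0.65 (adjusted p = 0.561 in limma). In both sets control replicate 1 was lowest, and without it the difference of the first was 0.35.

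*Pou4f3*, best known from hair cells of the inner ear, was at 4.11, 4.26 and 4.04 in controls and at 3.79, 4.16 and 4.04 in the *Ezh2* cko, a difference of -0.14 with overlapping groups. A further probe set has no symbol in the platform's annotation. The study's supplementary list of changed genes, chosen on these arrays, names it *Pou4f2*, which encodes Brn3b, a factor of retinal ganglion cells, so its difference is no independent evidence. It was at 4.16, 4.64 and 5.02 in controls and at 5.37, 5.32 and 6.07 in the *Ezh2* cko. All *Ezh2* cko values were higher, with a log2 difference of 0.98, or 1.97-fold (standard error 0.25, unadjusted p = 0.00378, adjusted p = 0.302 in limma). With the limma p it passed the methods' threshold and not the adjusted p, and by the methods' t-test its unadjusted p was 0.0478. Without control replicate 1 the difference was 0.76 (unadjusted p = 0.0129 in limma), without *Ezh2* cko replicate 3 it was 0.74, and with the neuron marker mean in the fit 0.43, all short of the threshold. Without control replicate 2 it was 0.996 with an unadjusted p of 0.0120 in limma, also short of it. It is not in any count of the 30 genes.

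The largest difference among the 30 genes was that of *Pou6f1*, which encodes Brn5, a class VI factor of the nervous system. It was at 6.79, 7.11 and 7.02 in controls and at 7.57, 7.21 and 7.68 in the *Ezh2* cko. All *Ezh2* cko arrays were above the controls, replicate 2 only just. The difference was 0.51, or 1.43-fold (standard error 0.14, unadjusted p = 0.00476, adjusted p = 0.335 in limma). Without any 1 array it lay between 0.42 and 0.65. Its other probe set, with a mean signal of 3.58 in controls and 3.44 in the *Ezh2* cko, gave -0.15 with overlapping groups.

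The other Pou genes have their known roles outside the midbrain, and their groups overlapped. *Pou2f2* and *Pou2f3* of class II, known from B cells and from tuft cells, had differences of -0.083 and 0.0083. *Pou5f1*, which encodes the pluripotency factor Oct4, had a difference of 0.086 (-0.14 to 0.31). Its class V relative *Pou5f2* had one of 0.056. Of 16 pluripotency and germline genes 0 passed the adjusted p, with a median of -0.043. By the brightest probe set of each gene, the largest differences in that list were those of *Lin28a* (-0.65), *Tbx3* (0.59) and *Klf4* (0.38). *Fgf4*, also in the list, was at -0.11 by its brightest probe set. The study's supplementary list of changed genes has other probe sets of *Fgf4*, with much higher signal in the *Ezh2* cko.

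**Figure D3:**
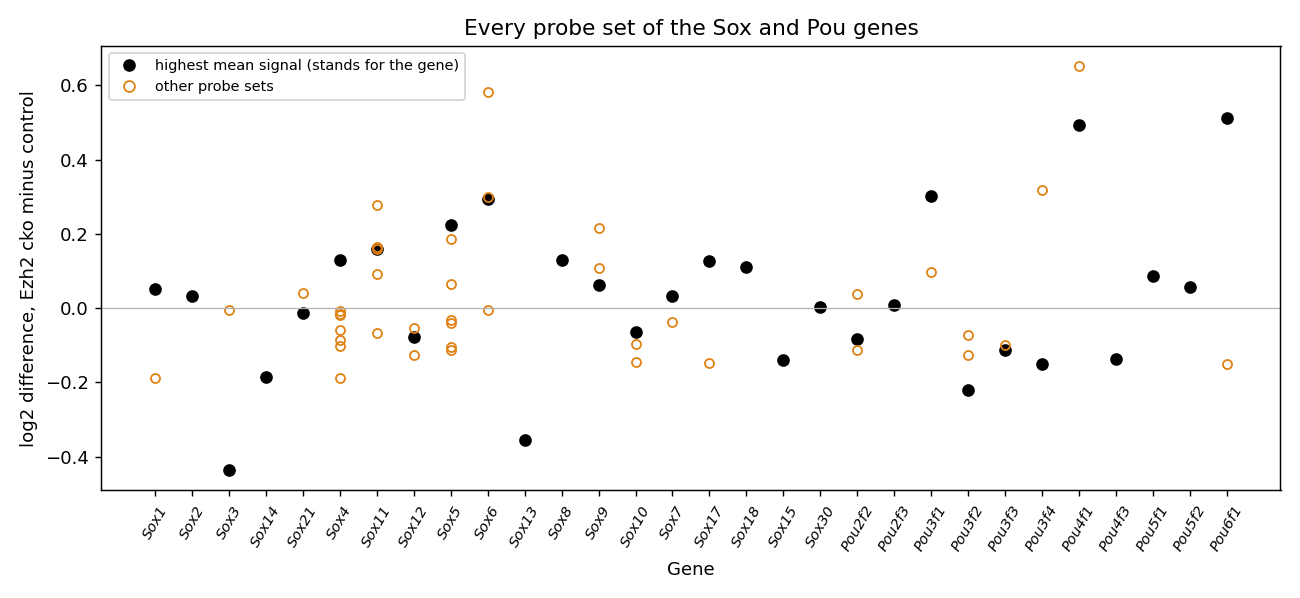
Log2 difference, Ezh2 cko minus control (y axis), of all 71 probe sets of the Sox and Pou genes (x axis), with the set of highest mean signal filled. The probe sets of Pou4f1 lie together above 0, those of Sox6 lie above 0 except 1, and those of Sox3, Pou6f1 and Pou3f4 lie apart.

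Probe sets of the same gene often differed in sign. Of the 19 genes with several sets, 8 had differences of 1 sign and 11 of both. Over all 71 probe sets, 0 passed the adjusted p in limma against 0.189% of all probe sets, 10 (14.1%) had an unadjusted p under 0.05 against 7.55% of all probe sets, and 16 (22.5%) had no overlap between the groups against 13% of all probe sets. The 41 sets that do not stand for a gene included 7 (17.1%) with no overlap.

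The level of neuron markers differed between arrays of a group as well as between groups. The median deviation of 21 such genes, each taken from its own 6-array mean, was -0.46, -0.054 and 1e-04 in controls and -0.078, 0.17 and 0.40 in the *Ezh2* cko. Control replicate 1 was lowest and *Ezh2* cko replicate 3 highest. None of the 21 passed the adjusted p. In limma, 11 (52.4%) had an unadjusted p under 0.05, all with higher signal, against 6.12% of all genes. The median log2 difference of the 21 was 0.36, with values of 0.63 for *Nhlh2*, 0.57 for *Mapt* and 0.56 for *Rtn1*. Of 18 genes of sensory and retinal-type neurons, 0 passed the adjusted p and the median was 0.19. Every *Ezh2* cko array lay above the controls in 4 of these 18 (22.2%, against 7.52% of all genes). The gene with the largest difference was *Ret* (0.89, adjusted p = 0.302 in limma). The study's supplementary list, chosen on these arrays, holds the same probe set of *Ret*, so its difference is no independent evidence.

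Among the 9 genes without overlap, *Pou4f1*, *Pou3f1*, *Sox11* and *Pou6f1* had the same lowest and highest arrays as the neuron markers. When the neuron marker mean was added to the fit, the difference of *Pou4f1* was 0.21 in place of 0.49, that of *Pou3f1* 0.18 in place of 0.30, that of *Sox11* 0.062 in place of 0.16 and that of *Pou6f1* 0.37 in place of 0.51. Those of *Sox6* (0.35) and *Sox3* (-0.61) were larger in size than without it, and *Sox13* was at -0.38. *Sox14* was at -0.051 in place of -0.19, and *Pou3f3* at -0.14 in place of -0.11. *Pou3f4* was at -0.56 in place of -0.15 (unadjusted p = 0.00194, adjusted p = 0.384 in limma). All had adjusted p-values of 0.370 or more in that fit. The neuron markers also differ between the groups, so the term can remove part of a difference between genotypes, and the part of neuronal content in these values was not tested.

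Progenitor markers had a median near 0. Of 15 such genes, each by its brightest probe set, 0 passed the adjusted p, 7 had positive and 8 negative differences, and their median was -0.017. Single genes stood out in it, with *Fabp7*, which encodes a lipid-binding protein of radial glia, at 0.49, the Notch target *Hes1* at 0.38 and *Slc1a3*, which encodes a glutamate transporter, at 0.32. Adjusted p-values of these were 0.219, 0.148 and 0.333 in limma, and their groups did not overlap. In all, 6 of 15 (40%, against 15.4% of all genes) had no overlap, 4 with higher and 2 with lower signal. The level of the list lay between -0.10 and 0.050 in controls and between 0.0058 and 0.11 in the *Ezh2* cko. The list holds *Pax6*, with a difference of -0.017 by its brightest probe set. The study's supplementary list of changed genes has another *Pax6* probe set, with higher signal in the *Ezh2* cko.

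Mesenchyme and macrophage markers were lowest in control replicate 1, at -0.31 and -0.49. On the other arrays, 18 mesenchyme and cartilage markers lay at -0.0275 and -0.0030 in controls and at 0.052 to 0.18 in the *Ezh2* cko, and 14 macrophage markers at -0.082 and 0.12 against 0.037 to 0.21. None of either list passed the adjusted p, and the medians of their differences were both 0.27. Every *Ezh2* cko array lay above the controls in 7 of 18 mesenchyme and cartilage markers (38.9%) and 3 of 14 macrophage markers (21.4%), against 7.52% of all genes. Every one lay below them in 1 of 18 (5.56%) and 0 of 14, against 7.88% of all genes. *Sox9*, which is active in cartilage precursors, was lowest in replicate 1 of either group. Whether cells of these types contribute to the Sox and Pou values was not tested.

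**Figure D4:**
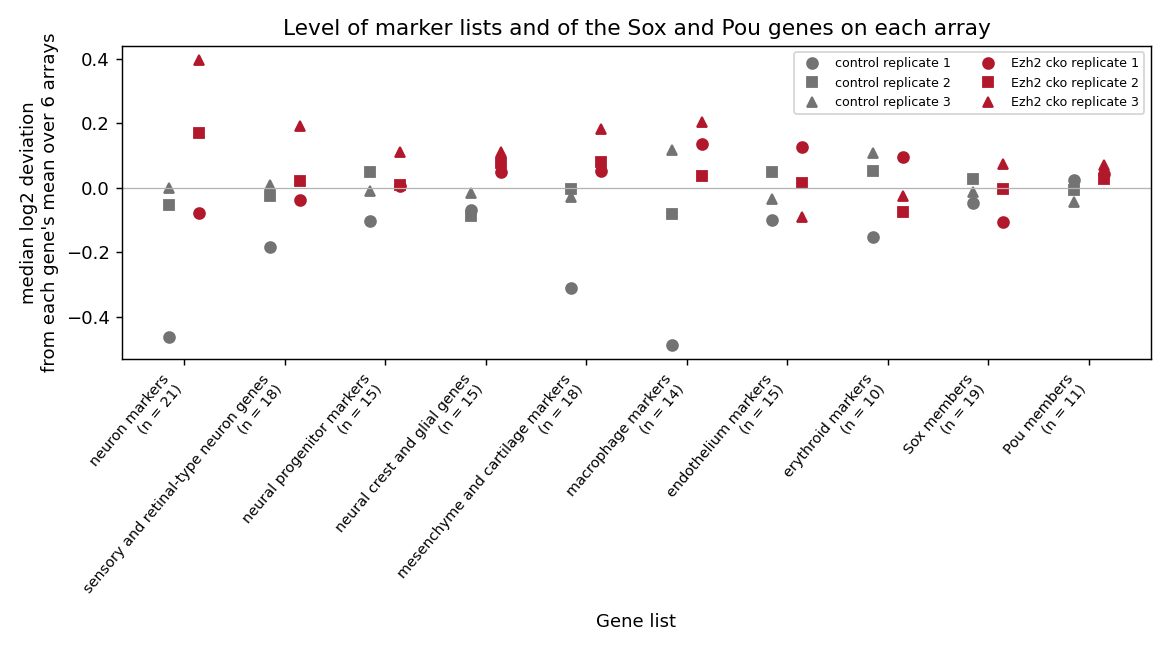
Median log2 deviation of a list's genes from their means over the 6 arrays (y axis) for marker lists and for the Sox and Pou genes (x axis), on each array, with controls in grey and Ezh2 cko in red. Neuron, mesenchyme and macrophage markers are lowest in control replicate 1, and the medians of the Sox and Pou genes stay within -0.11 and 0.074 on all arrays.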

How the data were processed

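Total RNA of 3 control and 3 *Ezh2* cko dorsal midbrains was hybridized to Affymetrix A430 arrays. The authors summarized each probe set with RMA, and the deposited values are on the log2 scale (version not given in the sources used here). Array signals carry no depth, and the number of arrays limits the precision.

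After removal of 64 control sets, limma 3.58.1 (R 4.3.3) compared *Ezh2* cko with control on 45037 probe sets by moderated statistics, with Benjamini-Hochberg adjustment over all of them. Of these, 34945 have 1 symbol, 932 several and 9160 none in the platform's annotation. Symbols were updated through Entrez identifiers (34741 matched). Genes named with all values were the 10 with the largest absolute difference and all of SoxB1, SoxC, SoxE and Pou classes III and IV. Other lists name up to 3 genes by the size of the difference, and *Pax6* and *Fgf4* for their other probe sets. The genes and lists were chosen with earlier results of these data known. The fit was tested on simulated data. Alternatives were other variance priors, tests, normalizations, filters and probe sets, array weights, a replicate block, a neuron marker term and leaving out each array.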

Additional observations from a re-analysis of the deposited data

How the results depend on the processing

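Under every alternative run, 0 of the 30 Sox and Pou genes passed the adjusted p and 0 the threshold of the methods. Over all genes the shares were 0% to 0.539% and 0.231% to 0.506%. At such shares a count of 0 does not set these 30 genes apart. The smallest adjusted p of a Sox or Pou gene was 0.106, for *Sox6* with the mean of all probe sets of a gene. That setting gave 5 genes with no overlap between the groups, and leaving out single arrays gave 9 to 13 (23.1% to 30% of all genes). Over all probe sets, 83 were higher and 2 lower at the adjusted p. With the neuron marker term 7 were higher and 2 lower, and without single arrays 20 to 44 were higher. By the unpaired Student t-test 0 passed, with 8.16% of all genes at an unadjusted p under 0.05. The medians are small and their sign is not stable. That of the Pou genes was -0.028 with quantile normalization again, 0.10 with the neuron marker term and 0.056 with the mean of all probe sets, and ranged from -0.063 to 0.065 without single arrays. That of the Sox genes was -0.051 with the neuron marker term.

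The difference changed sign for some genes. With the mean of all probe sets these were *Pou3f4* (0.084), *Sox1* (-0.069) and *Sox4* (-0.043). With the neuron marker term they were *Sox10* (0.013), *Sox2* (-0.095), *Sox4* (-0.11) and *Sox9* (-0.42, unadjusted p = 0.0116 and adjusted p = 0.626 in limma), and with array weights *Sox9* (-0.0099). Without single arrays the differences ranged from -0.29 to 0.050 for *Pou3f4*, -0.17 to 0.053 for *Sox10*, -0.031 to 0.11 for *Sox2* and -0.16 to 0.26 for *Sox9*. The cause was not tested. Of 20 genes followed, 14 kept their sign under all alternatives that use every array, and 16 without each single array.

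The deviations of same-numbered samples had correlations of 0.065, -0.20 and 0.063, against -0.16 to 0.12 for samples with different numbers. With so few arrays, and with litters not assigned by the labels, these values cannot show whether same-numbered samples share more than a number. With the replicate number as a block, 0 genes passed the adjusted p, and the difference of *Pou4f1* stayed at 0.49 (adjusted p = 0.317 in limma).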
